A study of Xenopus laevis with 4 samples.

Results

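The vegetal explant was set against the dorsal marginal zone of the Xenopus laevis gastrula at stage 10, using 1 expression array for each explant. These are 2 of the 4 arrays of a survey of regional gene expression, and each was hybridised with material amplified from 100 ng of total RNA. The other arrays held the animal cap (prospective ectoderm) and the ventral marginal zone, and they are used below only as levels beside the comparison. The vegetal explant comes from the vegetal pole, where the large yolky cells of the prospective endoderm lie. The dorsal marginal zone is the dorsal sector of the equatorial belt, where the Spemann organizer forms. The labels do not give the number of embryos or dissections behind an explant, any treatment, or where the edges of each explant were cut. Of 15491 probe sets, 8595 entered the comparison, and they covered 4868 genes with a symbol. With 1 array on each side no test, standard error or p-value could be computed, and nothing below has a replicate check.

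In the frog gastrula, maternal RNAs stored in the vegetal cytoplasm, among them those of the T-box factor VegT and the TGF-beta ligand Vg1 (gdf1), start nodal signalling, and nodal signals induce endoderm in the vegetal cells and mesoderm in the belt above them. On the dorsal side nodal and maternal Wnt signals together turn on the organizer genes. Their secreted products chordin, noggin, cerberus and dickkopf block BMP and Wnt signalling. The vegetal pole also holds the germ plasm, a cytoplasm rich in mitochondria and in RNAs of the future germ cells. The gene names carry the suffix .L or .S for the long or short chromosome copy of this allotetraploid species.

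Signals are linear intensities on the scale the authors deposited, on which the 4 arrays share a trimmed mean. A signal below 24.7, the 20th percentile of all values on the 4 arrays, was raised to that floor, and a probe set entered when the brighter of both explants reached 147, the median of all values. The value of a gene with several probe sets that entered is their mean on the log2 scale, and a fold over a signal at the floor is a lower bound. Median signals were 145 dorsally and 158 vegetally, a log2 gap of 0.12. The 9 hybridisation controls differed by only 0.02 (log2) on average, vegetal minus dorsal, with a range of -0.08 to 0.18. The ratio of the 3′ to the 5′ control probe set of GAPDH, a sign of RNA quality, was 5.85 in the vegetal explant, 4.30 in the dorsal marginal zone, 4.45 in the animal cap and 3.99 in the ventral marginal zone. The same ratio for beta-actin was 0.71 in both explants compared. Whether RNA quality plays a part in any difference below was not tested.

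Of the 8595 probe sets, 845 (9.83%) were 2-fold or more higher vegetally and 678 (7.89%) dorsally, 17.7% in all. Differences of 4-fold or more were found for 179 and 176 probe sets, and of 8-fold or more for 50 and 65. The vegetal side thus held 55.5% of the 2-fold probe sets as deposited. Centring each array on its median lowers a vegetal minus dorsal value by 0.12 where both signals lie above the floor. The counts were then 662 and 844 of 8483 probe sets, and the vegetal share 44.0%. The side with the higher count therefore changes with the scaling. Over genes, 424 of 4868 (8.71%) were higher vegetally and 302 (6.2%) dorsally, and the median difference of all measured genes was 0.06 (log2, vegetal minus dorsal). These 2 percentages are the background against which the gene lists below are read. The lists overlap, most of all the organizer list with the neural plate list (11 genes on the array) and with the Wnt list (9 genes).

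The threshold cuts a continuous range. The genes just inside it were septin8.S (308 vegetally, 154 dorsally), ifrd1.L and LOC100137665 on the vegetal side and tra2b.S (1207 vegetally, 2419 dorsally), rap1gds1.L and xpnpep1.L on the dorsal side. Just outside lay rell1.S (243 vegetally, 122 dorsally), sft2d2.L and sppl2b.S, and myo5a.L (153 vegetally, 305 dorsally), melk.L and ube2c.L. Among the probe sets that entered, 27.9% of the 2865 dimmest by mean signal differed 2-fold or more. The shares were 15.8% of the middle 2865 and 9.49% of the brightest 2865. The share of the dimmest group is partly set by the filter. Entry needs a bright signal in 1 explant, so the lowest means (from 60.5) require a much dimmer signal in the other. How much of that share arises in this way was not separated. Means in the middle group started at 296, above the filter, so the filter does not set the other shares.

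Genes that mark the regions gave a check of both labels. The endodermal SOX factor gene sox17b.1.S had a signal of 6993 vegetally, 1110.2 dorsally, 998 ventrally and 25.6 in the cap, 6.30-fold above dorsal. Brachyury (tbxt.S), which marks early mesoderm, was 676 dorsally, 886 ventrally, 146 vegetally and at the floor in the cap. Chordin (chrd.1.S), the secreted BMP antagonist of the organizer, was 1735 dorsally, 146 vegetally and at the floor on the other arrays. On these markers endoderm lies on the vegetal side and mesoderm on the dorsal side, with each marker also present in the other explant. Other regional markers were mixed. The genes fgf8.L (5.12-fold) and frzb2.L (at least 7.01-fold on the probe set that entered) were higher dorsally. Under 2-fold lay nodal3.1.L (1626 dorsally, 1533 vegetally) and dkk1.S (322 and 241), and the mesodermal gene wnt8a.L was 3.96-fold higher vegetally. Goosecoid, an organizer homeobox gene, did not separate the explants on its .S copy, with 2662 dorsally and 2594 in the vegetal explant. Its .L copy was 2.45-fold higher dorsally (1959 against 798), with both of its probe sets alike (2.48-fold and 2.43-fold). The maternal T-box gene vegt.L was 7351 dorsally and 7247 in the vegetal explant. In bulk RNA fewer cells of a type and less RNA per cell cannot be told apart.

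**Figure D1:**
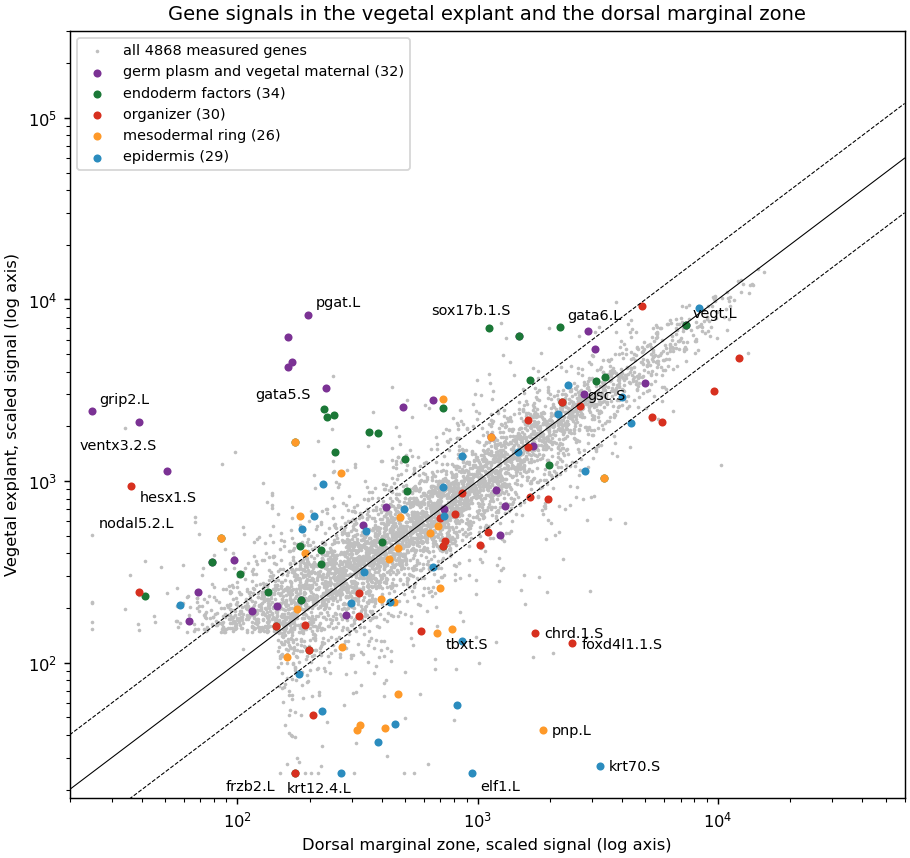
Signal of each of 4868 measured genes in the dorsal marginal zone (horizontal, log axis) and in the vegetal explant (vertical, log axis), 1 array each, with 5 gene lists in colour. The solid line marks equal signals and the dashed lines a 2-fold difference. Germ plasm genes such as pgat.L and grip2.L lie far above the lines, and krt70.S, pnp.L and chrd.1.S far below them.

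Several germ plasm RNAs were among the widest vegetal differences. Of 32 measured genes of the germ plasm and vegetal maternal list (36 on the array), 16 were 2-fold or more higher vegetally, 1 dorsally and 15 in neither. The list median was 1.01 (log2) against 0.06 over all genes. The RNA of grip2.L, an adaptor protein gene whose RNA is a germ plasm component, was 2432 vegetally, 37.1 ventrally and at the floor in the cap and dorsally, at least 98.5-fold above dorsal. The germ plasm gene germes.L was 2118 vegetally and 38.8 dorsally (54.6-fold). The gene pgat.L was 8243 vegetally, 197 dorsally, 191 ventrally and 30.6 in the cap. These 3 genes were brightest in the vegetal explant, and pgat.L was alike in the 2 marginal zones. The germ cell RNA helicase gene ddx25.L was 6178 vegetally and 163 dorsally (37.9-fold), and the RNA-binding protein gene dnd1.L, known as dead end, was 4535 and 169 (26.9-fold). For dazl.L, a germline translation regulator, the signals were 4242 and 162 (26.1-fold), and for nanos1.L, a germline translational repressor, 1130.0 and 51.0 (22.1-fold). The germline helicase gene ddx4.L, named after its value was seen, was level, with 706 vegetally and 721 dorsally.

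Other vegetally stored RNAs differed less. The Vg1 gene gdf1.S was 3237 vegetally, 234 dorsally, 253 ventrally and 41.8 in the cap, a 13.8-fold difference. The lipid droplet gene plin2 was higher vegetally on both copies, by 2.38 (log2) for plin2.S and 2.11 for plin2.L, which were named after their values were seen. The vegt copies, by contrast, were level between the explants (log2 -0.02 for .L and 0.28 for .S). On the other arrays vegt.L was 6574 ventrally and 349 in the cap. These signals do not separate stored RNA from RNA made in the embryo. The single member higher dorsally, zfp36l2.L (named after its value was seen), encodes an RNA decay factor and was 1241 dorsally and 507 vegetally. Some germ plasm genes had a signal in both marginal zones. The genes pgat.L, ddx25.L, dnd1.L and dazl.L were 162 to 197 dorsally, 178 to 217 ventrally and 30.6 to 91.8 in the animal cap. Other members were as low dorsally as in the cap, with germes.L at 38.8 and 32.6 and grip2.L at the floor in both. Summed over the 32 genes, the list's signal was 78949 vegetally, 33805 dorsally, 32997 ventrally and 23478 in the cap. Bright members weigh most in such a sum: vegt.L alone gave 7351 dorsally and 7247 vegetally. The sums are therefore no measure of germ plasm content.

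Endoderm regulators were also on the vegetal side in part. Of 34 measured genes of the endoderm list (43 on the array), 18 were higher in the vegetal explant and 2 dorsally, with a median of 1.19 (log2). The zinc finger genes gata5.S and gata5.L, endodermal transcription factors, were 2478 and 2244 vegetally against 230 and 235 dorsally, 10.8-fold and 9.55-fold. The homeobox gene mixer.S, a nodal target that acts upstream of sox17, was 1630.1 vegetally, 173 dorsally, 301 ventrally and at the floor in the cap. Its copy mixer.L was 483 vegetally and 85.0 dorsally (5.68-fold). The gene darmin.L, which codes for a secreted peptidase of the endoderm, was 2298 vegetally, 252 dorsally and 85.4 ventrally (9.10-fold). Each of these was lower on both marginal zone arrays than in the vegetal explant, and all were at or near the floor in the cap. The sox17a copies were 1831 and 1862 vegetally and 387 and 352 dorsally (4.74-fold and 5.29-fold). The difference was smaller for gata6.L, which had 7027 vegetally and 2204 dorsally (3.19-fold).

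Part of the endoderm list was level or dorsal. The cerberus gene cer1.S, which encodes a secreted inhibitor of nodal, BMP and Wnt, was 2740 vegetally and 2236 dorsally (log2 0.29), and a2m.S was 3741 and 3391 (0.14). The bix1 homeobox genes, close relatives of mixer, differed by 0.22 to 1.26 (log2), with only bix1.1.L past 2-fold. The 2 members higher dorsally were the T-box gene eomes.L, with 3374 dorsally and 1043 vegetally, and frzb2.L, a Wnt antagonist gene also called crescent. The frzb2.L probe set that entered was 173 dorsally and below the floor vegetally (at least 7.01-fold), but its other probe set, below the filter, was 68.7 and 75.8. The genes cer1.S, a2m.S, bix1.1.L and eomes.L were named after their values were seen.

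The nodal and GDF pathway list had members on both sides, but its ligand genes past 2-fold were all vegetal. Of 18 measured genes of this list (32 on the array), 4 (22.2%) were higher vegetally and 2 (11.1%) dorsally, with a median of 0.16. The ligand gene nodal5.2.L was 505 vegetally and at the floor on the other 3 arrays, at least 20.5-fold. The Vg1 gene gdf1.S, given above, was the other ligand gene of the list past 2-fold. Under 2-fold lay nodal1.L with 218 vegetally and 115 dorsally, nodal2.L with 602 and 420, and gdf3.S with 1888 and 2085. The organizer ligand gene nodal3.1.L was 1533 vegetally and 1626 dorsally (log2 -0.08), while it was 40.1 in the ventral marginal zone. Among receptors and transducers, the activin receptor gene acvr2b.L was 190 vegetally and 74.3 dorsally. Its much brighter copy acvr2b.S was level, with 2165 vegetally and 2031 dorsally (log2 0.09). The nodal co-receptor gene tdgf1.3.L was 3129 vegetally and 9617 dorsally, with 10096 in the cap and 8597 ventrally. The shared SMAD gene smad4.L was 610 vegetally and 1957 dorsally (3.21-fold), although a dim second probe set below the filter was 106 and 80.6. Of these, nodal1.L, nodal2.L and gdf3.S were named after their values were seen. Below the filter in both explants lay 14 members. Among them nodal6.L was 112 vegetally and nodal.L 125, each below the floor dorsally. The lefty copies were higher dorsally, lefty.L with 90.6 against 47.8 and lefty.S with 66.9 against a signal below the floor. These were also named after their values were seen.

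The list of the ventral side and of the BMP response had more members higher vegetally than dorsally. Of 28 measured genes (44 on the array), 14 were higher in the vegetal explant, 3 dorsally and 11 in neither, with a median of 0.98. The homeobox repressor gene ventx3.2.S was 1959 vegetally, 580 ventrally, 34.0 dorsally and 42.0 in the cap, 57.6-fold above dorsal. Sizzled, a secreted protein that protects chordin from cleavage, had szl.S signals of 197 vegetally, 433 ventrally and 34.1 dorsally. Its copy szl.L was 166 vegetally, 186 ventrally and below the floor dorsally. For the szl copies the ventral marginal zone was thus the brightest array, and for ventx3.2.S the vegetal explant. The zinc finger gene gata3.S was 513 vegetally and 69.0 dorsally (7.43-fold), and the T-box gene tbx3.S was 153 vegetally and at the floor dorsally (at least 6.19-fold). The ligand genes bmp2.S and bmp2.L, named after their values were seen, were 656 and 540 vegetally against 148 and 167 dorsally.

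The list was not uniform. Of the ventx2 genes, homeobox genes induced by BMP4, none was past 2-fold, with ventx2.2.L at 294 vegetally and 259 dorsally, ventx2.1.S at 1569 and 1182, and ventx2.1.L at 625 and 1197. The last was past it dorsally (-1.06, log2) with the arrays centred on their medians. The ligand gene bmp7.2.L, named after its value was seen, ran the other way, with 621 vegetally and 3564 dorsally, 4890 in the cap and 4653 ventrally. The vegetal explant was the single dim array for that gene. With each array centred on its median, 11 of 26 measured members were higher vegetally and 4 dorsally.

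Beyond the lists lay 343 of the 424 genes higher in the vegetal explant. The glycolytic gene pgam1.L, phosphoglycerate mutase, was 3769 vegetally, 249 dorsally, 393 ventrally and 85.9 in the cap (15.1-fold). The mitochondrial import chaperone gene timm8b.S was 1449 vegetally and 97.9 dorsally (14.8-fold), whereas its copy timm8b.L was 490 and 657. Further genes of this side were coq6.L, of coenzyme Q synthesis (593 against 66.4), hao1.L, a peroxisomal oxidase gene (1654 against 216), the connexin gene cx38.S (302 against 35.6) and the desmosomal cadherin gene dsc3.S (363 against 41.1). The remaining genes named by rank were XB5765006.S (14.3-fold), pced1a.L (9.47-fold), cnppd1.L (7.75-fold) and nsmce1.L, of the SMC5/6 DNA repair complex (7.59-fold). Against a dorsal signal below the floor, the homeobox genes hoxd9 (217 vegetally) and emx2.L (213) were at least 8.78-fold and 8.61-fold higher. Another hoxd9 probe set lay below the floor on all 4 arrays and gave no measurable difference.

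**Figure D2:**
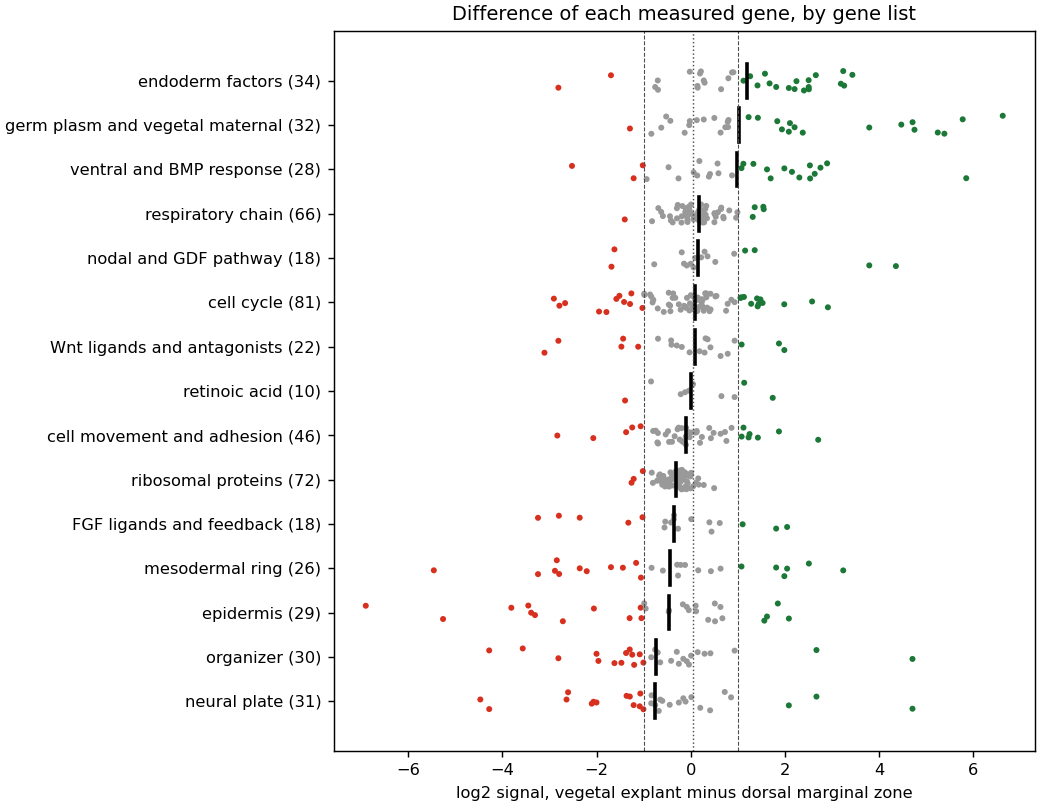
Log2 difference, vegetal explant minus dorsal marginal zone, of each measured gene in 15 gene lists (number of measured genes in brackets), sorted by list median (black bars). Green and red points are 2-fold or more higher in the vegetal explant or the dorsal marginal zone, and the dotted line is the median of all genes. The endoderm, germ plasm and ventral lists have medians near 1, and the organizer and neural plate lists lie lowest.

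Organizer genes split into those that were dorsal and those that were as high in the vegetal explant. Of 30 measured genes of the list (42 on the array), 13 were 2-fold or more higher dorsally and 2 vegetally, with a median of -0.73. The forkhead gene foxd4l1.1.S, which represses other factors in the early neural ectoderm, was 2480.2 dorsally, 128 vegetally, 349 ventrally and 446 in the cap (19.4-fold). Chordin was 11.8-fold higher dorsally, with probe set signals of 855 and 3523 dorsally against 59.6 and 360.0 vegetally. The members higher in the vegetal explant were the copies of one gene, the anterior homeobox repressor hesx1: hesx1.S was 942 vegetally, 36.1 dorsally, 99.5 ventrally and at the floor in the cap, and hesx1.L was 246 vegetally and 38.7 dorsally. The copies were 26.1-fold and 6.36-fold higher vegetally.

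The dorsal members beyond these included admp.S, pcdh8.2.L and the crx homeobox genes. The BMP-type ligand gene admp.S was 1022 dorsally and 444 vegetally, but its probe sets disagreed in size (932 against 715, and 1121 against 276). The protocadherin gene pcdh8.2.L was 5307 dorsally and 2243 vegetally, with 3619 ventrally. The otx-related genes crx.L and crx.S were at the edge of the rule, with 1648 and 1110 dorsally against 821 and 524 vegetally, and without the filter crx.S was at -0.08 (log2). Level between the explants, within 0.5 (log2), were otx2.L (695 dorsally, 623 vegetally), dkk1.S (322 and 241), frzb.L (1629 and 2177), cer1.S and nodal3.1.L. In the ventral marginal zone the same 5 genes were 80.7, at the floor, 206, 447 and 40.1. All of the genes just described except dkk1.S and nodal3.1.L were named after their values were seen. The copy frzb.S, chosen in the same way, was 9248 vegetally, 4852 dorsally and 3625 ventrally, and so was not low on the ventral array.

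Genes of the mesodermal ring lay on both sides. Of 26 measured genes (49 on the array), 11 (42.3%) were higher dorsally, 6 (23.1%) in the vegetal explant and 9 in neither, with a median of -0.44. The purine phosphorylase gene pnp.L was 1865 dorsally, 315 ventrally, 91.3 in the cap and 42.6 vegetally (43.8-fold). The growth factor gene fgf20.L was 412 dorsally, 187 ventrally and 43.6 vegetally (9.46-fold), and the apelin receptor gene aplnr.S was 313, 210 and 42.5 (7.38-fold). These genes were lower in the vegetal explant than on either marginal zone array. The dorsal marginal zone was the brightest array for each, by the widest margin for pnp.L (1865 against 315 ventrally). The myogenic gene myf5.L was high in the dorsal sector alone, with 325 there, 47.6 ventrally, 45.3 vegetally and a cap signal at the floor (7.18-fold). Brachyury was 4.62-fold higher dorsally and fgf8.L, a mesodermal growth factor gene, 5.12-fold. The copy aplnr.L, in contrast, was 633 dorsally and 518 vegetally. The members higher in the vegetal explant were both mixer copies, both copies of the receptor gene fgfr4 (4.13-fold for .L and 3.51-fold for .S), wnt8a.L and cdx1.S, the last of which was at 0.95 (log2) with the arrays centred. Of these, aplnr.L and cdx1.S were named after their values were seen.

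FGF and Wnt genes had members on each side. Of 18 measured FGF genes, 5 (27.8%) were higher dorsally and 3 (16.7%) vegetally (median -0.36), against 6.2% and 8.71% of all genes. The ligands fgf20.L and fgf8.L and the phosphatase genes dusp1.L (4112 against 591, 6.96-fold) and dusp1.S were dorsal, while the receptor genes fgfr4.L, fgfr4.S and fgfr2.L were vegetal. Of 22 measured Wnt genes, 5 (22.7%) were higher dorsally and 3 (13.6%) vegetally. Their median of 0.08 turned to -0.04 with the arrays centred on their medians. The ligand gene wnt8a.L, which ventralises the mesoderm, was 2842 vegetally, 2416 ventrally, 717 dorsally and at the floor in the cap (3.96-fold). The ligand gene wnt5a.S was 205 vegetally and 56.1 dorsally. The secreted antagonist genes sfrp1.L (311 dorsally, 36.2 vegetally) and sfrp2.S (5864 and 2113, 2.77-fold) were higher dorsally than vegetally. In the cap and ventrally sfrp1.L was low (33.0 and 62.6), but sfrp2.S was 6211 and 3077. Of the genes just named, dusp1.S and fgfr2.L were chosen by their values, and fgfr2.L was at 0.98 (log2) with the arrays centred.

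The neural plate list had more members higher dorsally than vegetally. Of 31 measured genes (54 on the array), 13 were higher dorsally, 3 vegetally and 15 in neither, with a median of -0.75. The LIM homeobox gene lhx5.S was 546 dorsally, 731 in the cap, 488 ventrally and below the floor vegetally (at least 22.1-fold). Its other probe set, below the filter, was 102 dorsally, 229 in the cap, 58.1 ventrally and 44.5 vegetally (2.29-fold). The pan-neural factor gene sox2.L was 409 dorsally, 441 in the cap, 390 ventrally and 65.7 vegetally (6.22-fold). On the probe sets of both genes that entered, the 3 other arrays were alike and the vegetal array was the dim one. Likewise sox3.S, chosen by its value, was 2188 dorsally, 3017 in the cap, 1830.4 ventrally and 523 vegetally. The vegetal members of the list were the hesx1 copies and otx1.L, a maternal homeobox gene also on the endoderm and germ plasm lists (6316 against 1492, named after its value was seen).

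The epidermal list also held more genes higher dorsally than vegetally. Of 29 measured genes (42 on the array), 11 were higher dorsally, 4 vegetally and 14 in neither, with a median of -0.46. The 4 probe sets of the keratin gene krt70.S were 1309 to 8064 dorsally and 1.06 to 35.4 vegetally, at least 119-fold on average. The ETS factor gene elf1.L was 945 dorsally and below the floor vegetally (at least 38.3-fold). Other members were the sodium pump subunit gene atp1b2.L (820 against 58.5) and the keratin genes krt12.4.L (270 against a signal below the floor, at least 10.9-fold) and krt7.L (383 against 36.6, 10.5-fold). The grainyhead-like gene grhl3.L, an epidermal differentiation factor, was 454 dorsally and 45.9 vegetally (9.89-fold). In the animal cap these 6 genes were 7854, 2772, 2648, 2423, 2931 and 1934, and in the ventral marginal zone 4561, 2087, 1326, 1156, 1201 and 1277, above the dorsal signal in each case. The list's summed signal, in which bright members weigh most, was 74231 in the cap, 51965 ventrally, 38389 dorsally and 30361 in the vegetal explant. Whether the dorsal explant held epidermal cells, and how far any such cells contribute to other dorsal differences, was not tested. The 4 vegetal members were klf17.L, klf17.1.S, krt19.S and elf1.S, named after their values were seen.

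Of the 302 genes higher in the dorsal marginal zone, 229 lay in none of the lists. The ring finger gene rnf222.L was 623 dorsally and 27.7 vegetally (22.5-fold), and the receptor gene for platelet-activating factor, ptafr.L, was 2063 and 113 (18.2-fold). The calponin gene cnn2.S, an actin-binding protein gene, was 797 and 48.5 (16.4-fold), and the marginal coil gene xmc.L, a coiled-coil protein gene of the marginal zone, was 1018 and 98.9 (10.3-fold). The prostaglandin synthase gene ptgs2.S was 10367 dorsally, 12909 in the cap, 13190 ventrally and 1231 vegetally (8.42-fold). For rnf222.L, ptafr.L and ptgs2.S the cap and ventral arrays were brighter than the dorsal one, and cnn2.S was 957 in the cap and 666 ventrally, so that the vegetal array was the dim one for all 4 genes.

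The rest of the dorsal genes named by rank covered several functions. Membrane proteins were the orphan receptor genes raig4a (15.9-fold) and gprc5cl2.S (11.8-fold), slc2a2.L, a transporter of glucose (13.6-fold), the peroxisomal carrier gene slc25a17.L (7.94-fold) and laptm4a.S (8.80-fold). Regulators of RNA were zfp36l1.S, an RNA decay factor gene (10.0-fold), and larp1.L, which binds messenger RNAs of ribosomal proteins (666 against 92.5). Metabolic genes were mid1ip1.L, of fatty acid synthesis (9.15-fold), and arginase, arg1.L (8.53-fold), and kctd15.L, an inhibitor of neural crest formation, was 8.24-fold higher. Against a vegetal signal below the floor, hes5.10.L, a Notch target gene, was 306 dorsally, and MGC68910 was at least 19.9-fold, ckap4.S at least 8.79-fold, traf4.S at least 8.18-fold and the epidermal zinc finger gene znf750.L at least 7.70-fold higher. The tubulin gene tuba1cl.3.L had 1 probe set below the vegetal floor and 1 at 32.4, and was at least 6.37-fold higher.

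**Figure D3:**
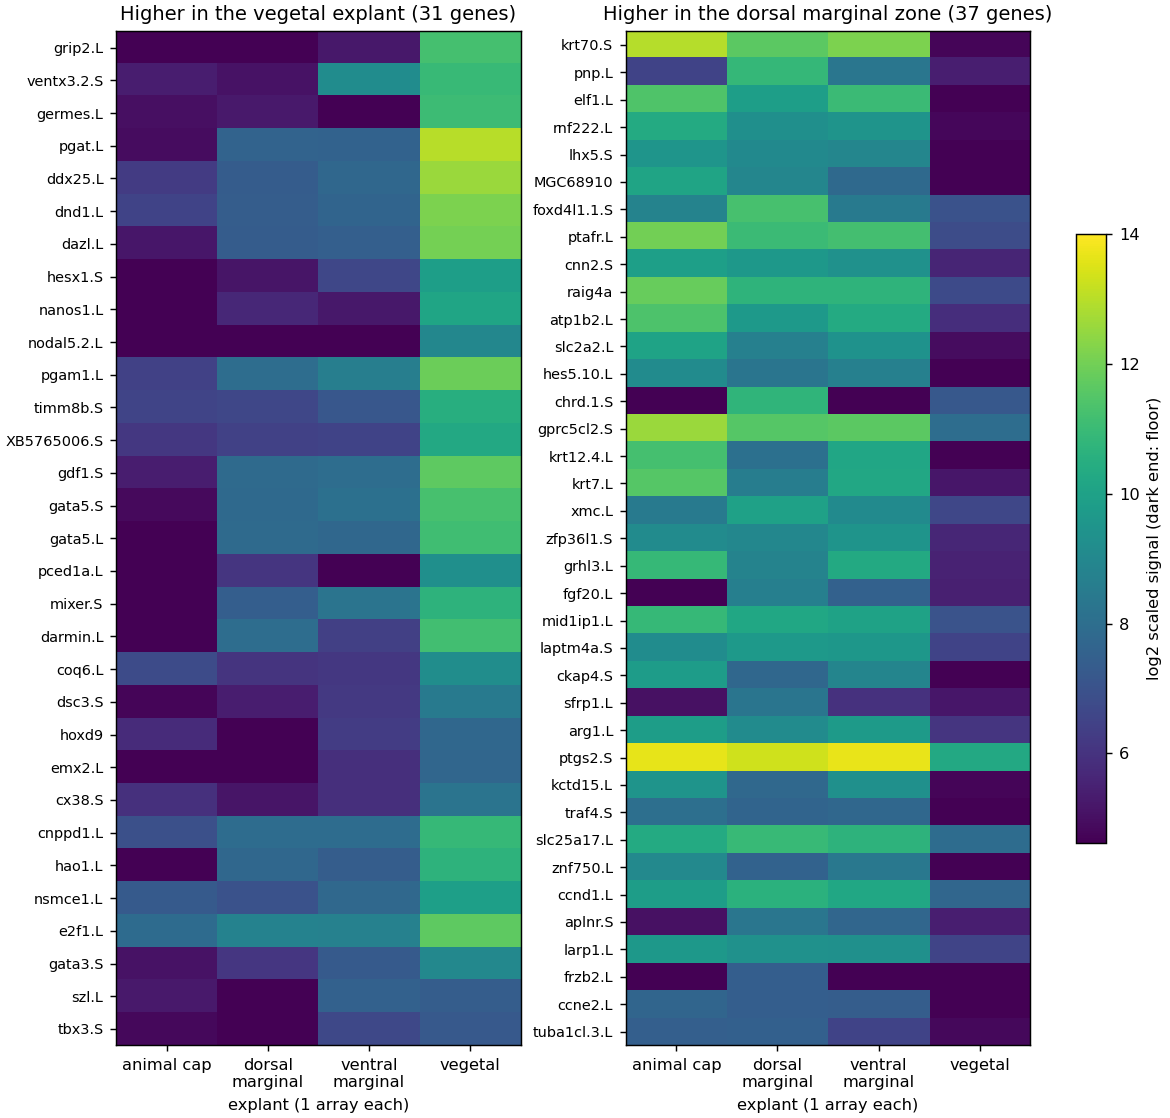
Log2 signal on the 4 arrays of the genes named by rank: 31 higher in the vegetal explant (left) and 37 higher in the dorsal marginal zone (right), ordered by the difference. Dark cells lie at the floor. On the left most rows are bright in the vegetal column alone, while on the right most rows are dim in the vegetal column alone, with chrd.1.S, frzb2.L and sfrp1.L among those bright in the dorsal column and dim elsewhere.

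Adhesion and cell movement genes had members on both sides. Of 46 measured genes, 7 (15.2%) were higher vegetally and 5 (10.9%) dorsally, against 8.71% and 6.2% of all genes, with a median of -0.10. The ephrin gene efna1.L was 2400.0 vegetally, 368 dorsally, 736 ventrally and 359 in the cap (6.52-fold). The ephrin gene efnb1.L was vegetal as well (2.68-fold), and the ephrin receptor gene epha2.L was dorsal, with 985 against 138 (7.12-fold). These ligand genes and this receptor gene thus lay on opposite sides. Of other receptor genes, named after their values were seen, epha4.L was dorsal (log2 -1.37, with its brighter probe set at -0.97). The receptor genes ephb3.L (-0.80) and ephb4.L (-0.10) were under 2-fold. The E-cadherin gene cdh1.S was 167 dorsally, 39.7 vegetally and 446 in the cap. Among retinoic acid genes 2 of 10 measured genes (20%) were higher vegetally and 1 (10%) dorsally. With so few members these shares say little beside the background. The retinaldehyde reductase gene dhrs3.L was 2185 vegetally and 996 dorsally , and the receptor gene rarg.S was 515 and 1355.

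Cell cycle genes had members on both sides. Of 81 measured genes, 12 were higher vegetally and 11 dorsally, shares of 14.8% and 13.6% that both exceeded the background of 8.71% and 6.2%. The median was 0.10, and -0.05 with the arrays centred on their medians. The transcription factor gene e2f1.L was 3309 vegetally and 440 dorsally (7.52-fold), and the mitotic cyclin gene ccnb1.S was 7435 vegetally and 1247 dorsally (5.96-fold). The kinase genes wee1.L, wee1.S and chek1.S, brakes on mitotic entry, were 3842, 2964 and 477 vegetally against 1415, 1030 and 121 dorsally, and without the filter wee1.S was at 0.95 (log2). Dorsally, the G1 cyclin gene ccnd1.L was 1575 against 210 (7.49-fold), ccne2.L was 171 against a signal below the floor (at least 6.91-fold), and ccng1.L was 662 against 104 (6.35-fold). The kinase genes cdk1.L (983 against 284) and cdk4.S (2177 against 729) were higher dorsally as well. In the cap and ventrally, ccnd1.L was 918 and 1196, ccne2.L 204 and 168, and ccng1.L 768 and 608. The same arrays gave 1026 and 959 for cdk1.L and 2407 and 2193 for cdk4.S. The vegetal array was thus the dim one for each of these genes. The brighter copy cdk1.S, however, was level, with 1445 dorsally and 1428 vegetally. Other mitotic cyclin genes were under 2-fold, with ccnb1.2.L and ccnb1.2.S at 0.25 and -0.33 (log2) and ccnb2.L and ccnb2.S at 0.35 and -0.70. The wee1, chek1, cdk, ccnb1.2 and ccnb2 genes were named after their values were seen.

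Housekeeping lists moved little. None of 72 measured ribosomal protein genes was 2-fold higher vegetally and 3 were dorsally, rps2.L, rps9 and rpl27a.L (2.39-fold, 2.32-fold and 2.02-fold). The median of this list was -0.31 as deposited and -0.27 to -0.43 under the other scalings. In the respiratory chain list 4 of 66 measured genes were higher vegetally, among them atp5pd.L (997 against 341) and ndufs3.S (206 against 70.9), and 1 dorsally, ndufc2.S (726 against 1917), with a median of 0.17. Both lists lay below the background share on the vegetal side.

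The animal cap and ventral marginal zone arrays took no part in the size rule beyond the floor and filter. Their levels for the same probe sets are given as description only, since the entry rule also shapes them. Of the 845 probe sets higher in the vegetal explant, 331 (39.2%) reached the filter of 147 on neither of these arrays, 369 (43.7%) on both, 120 (14.2%) in the ventral marginal zone alone and 25 (2.96%) in the cap alone. Of the 678 higher in the dorsal marginal zone, 578 (85.3%) reached it on both and only 36 (5.31%) on neither. Among the 7072 that differed by less than 2-fold, 6246 (88.3%) reached it on both. A probe set could enter through its brighter explant alone, so the 331 and 36 that were dim on both other arrays had entered through the vegetal or the dorsal array. The dorsal share bright on both lay near that of the probe sets under 2-fold.

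Set against each other, the ventral marginal zone and the cap also differed over these probe sets. Of the 845 vegetal probe sets, 126 (14.9%) were 2-fold or more higher ventrally than in the cap and 6 (0.71%) the reverse. The background over all 8595 was 3.53% and 0.966%. Of the 678 dorsal probe sets, 47 (6.93%) were higher ventrally and 42 (6.19%) in the cap. The median difference, ventral minus cap, was 0.20 (log2) for the vegetal probe sets, 0.00 over all and -0.10 for the dorsal ones. The last value turned to 0.04 with the arrays scaled to their hybridisation controls, while the first stayed between 0.09 and 0.34 under every scaling, floor and filter tried.

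**Figure D4:**
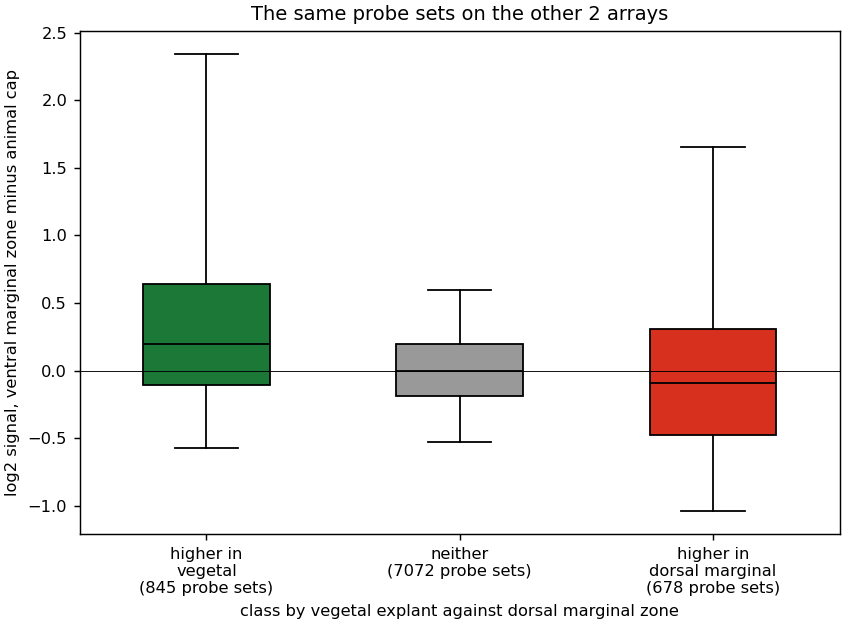
Log2 difference between the ventral marginal zone and the animal cap for the probe sets higher in the vegetal explant (845), in neither (7072) and in the dorsal marginal zone (678). Boxes span the quartiles with the median as a line, and whiskers run from the 5th to the 95th percentile. Both outer classes spread more widely than the middle one, and the vegetal class lies above 0 at its median.

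Probe sets of one gene and homeologous copies were compared within the same arrays. For 682 genes with several probe sets that entered, the SD of the difference between their first 2 was 0.65 (log2). In 146 of these pairs a member was past 2-fold. The pair had the same sign in 127, both were past 2-fold the same way in 44 (23 vegetal and 21 dorsal), and they lay past it in opposite directions in 2. For 571 genes with both copies measured the SD was 0.80, and of 121 pairs with a copy past 2-fold 97 had the same sign. Probe sets of near-identical copies can share RNA, so these pairs are not independent. The copies are also separate genes, so their SD need not be error. All pairs share the same dissections and arrays, so neither SD measures the spread between dissections.

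The copies moved together for several regulators. On the log2 scale the .L and .S values were 3.26 and 3.43 for gata5, 2.24 and 2.40 for sox17a, 2.51 and 3.24 for mixer, 2.67 and 4.71 for hesx1, and -2.95 and -2.70 for znf750. In 19 pairs both copies were past 2-fold vegetally and in 11 dorsally. In 1 pair they were past it in opposite directions: elf1.L lay at -5.26 and elf1.S at 1.85, with elf1.S signals of 207 vegetally and 57.6 dorsally. Other pairs far apart, chosen after their values were seen, were timm8b (-0.42 and 3.89), slc25a17 (-2.99 and 0.85), laptm4a (0.39 and -3.14), ckap4 (-0.17 and -3.14) and aplnr (-0.29 and -2.88). Of the other probe sets of laptm4a.S, both below the filter, 1 was 2.41-fold higher vegetally and 1 was 1.89-fold higher dorsally, beside the 8.80-fold dorsal difference of the one that entered.

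**Figure D5:**
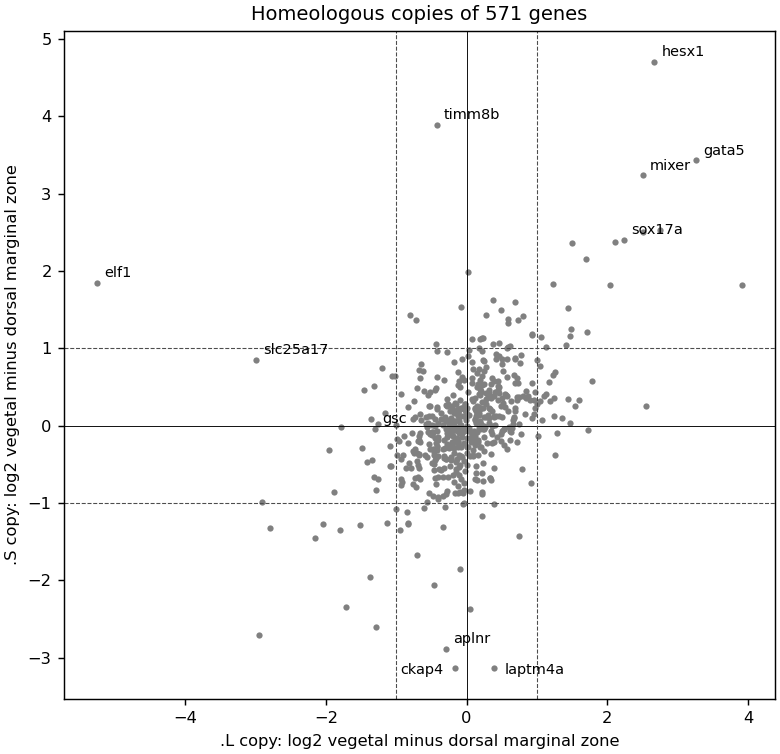
Log2 difference, vegetal explant minus dorsal marginal zone, of the .L copy (horizontal) and the .S copy (vertical) of 571 genes with both copies measured, with dashed lines at a 2-fold difference. The copies of hesx1, gata5, mixer and sox17a lie together at the upper right, and elf1, timm8b and slc25a17 lie far from the diagonal.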

How the data were processed

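RNA was measured on 4 arrays, 1 per explant, and each array was assigned to its explant by its sample title. Purification included a DNase I step and labelling used biotin after amplification from 100 ng, per the labels' protocols. For each of 15611 probe sets the authors deposited a linear intensity. How probes were summarised and scaled is not given in the sources used here; the equal trimmed means (500.1 on each array, without the lowest and highest 2%) were read from the values. No count includes the 120 control probe sets. Floor, filter, log2 and the 2-fold rule were applied with Python 3.11.15 and pandas 2.3.3, and the calculation was checked on simulated arrays. Gene symbols came from the array's platform annotation: 9304 had 1 gene symbol, 195 several (never named) and 5992 none, and 9227 matched the RefSeq table of Xenopus_laevis_v10.1. The number of arrays limits the precision. The genes named by rule were the 25 widest differences per side above the floor, up to 12 per side given as bounds, the 5 widest in each of 15 lists, 3 genes each side of the threshold and regional markers. The rule, the lists and the comparison were chosen with earlier results of these data known. Alternatives were 3 other scalings, other floors (10th and 40th percentile), other filters (none, 75th percentile) and the brightest probe set per gene. No sequences were used here.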

Additional observations from a re-analysis of the deposited data

How the results depend on the processing

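No paired analysis was possible because each explant has 1 array, and no replicate could be left out. The vegetal share of the 2-fold probe sets, 55.5% as deposited, was 44.0% with each array centred on its median, 49.3% after quantile normalization, 59.4% without a filter and 52.7% with the filter at the 75th percentile. Without a filter 15491 probe sets were compared and 1374 were higher vegetally, and with the stricter filter, which left 4401, the counts were 366 vegetally and 329 dorsally. Under the other alternatives both counts stayed within 1.5 times those given above. Of 112 genes past 2-fold that were named by rule, none that stayed measured changed direction under any alternative. With the filter at the 75th percentile only 68 of them stayed measured. Centring shifts a value by about 0.12 (log2), too little to reverse a 2-fold difference, so the unchanged directions say little about stability. The 40th percentile floor took szl.L, tbx3.S (log2 0.87) and cdh1.S under 2-fold, and without a filter laptm4a.S (-0.93), smad4.L (-0.64) and nr6a1.S (0.43) fell under it because dim probe sets entered their means. Under each scaling 3 to 5 of the genes named by rule, all at the edge of the rule, fell under 2-fold, and 1 was no longer measured. Every list median moved by less than 0.65, the SD between probe sets of one gene. That bound is wider than most of the list medians, so it says little about how stable they are. The Wnt and cell cycle medians changed sign with the arrays centred on their medians. Signals near the floor limit the size of the widest folds, and with 1 array per explant no difference has a replicate check.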

Other observations

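Genes outside the lists, chosen after their values were seen, gave further values. The acyl-CoA synthetase gene acsbg2.L was 1081 vegetally and 209 dorsally (log2 2.37), and dgat2.L, of triglyceride synthesis, was 1982 and 459 (2.11). The antiproliferative genes tob2.L and tob1.S differed by 2.63 and 2.01 (log2), and the stress-induced mTOR inhibitor gene ddit4.S was 6109 vegetally and 1311 dorsally. On the dorsal side, the histone genes h2bc11.S, h2ac7.L and h2ac14.L lay at -1.58, -1.45 and -1.39 (log2), the transcription factor genes tead4.S and pou2f1.S at -1.90 and -1.85, and the RNA-binding protein gene lin28a.S at -1.37 (1373 dorsally and 531 vegetally).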
